A study of Mus musculus with 4 samples.

Results

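MHC class I antigen presentation was read in B16F10 mouse melanoma cells through 10 genes, chosen by symbol for their place in the pathway: H2-K1, H2-D1, B2m, Tap1, Tap2, Tapbp, Erap1, Pdia3, Nlrc5 and Cd274. All 10 were listed among the 24421 gene rows of the count matrix, which held 24419 distinct symbols. Of these, 5 (H2-D1, H2-K1, B2m, Tapbp and Pdia3) had enough counts for a test between groups, and 5 (Tap1, Tap2, Erap1, Nlrc5 and Cd274) did not.

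The series held 4 bulk MARS-seq libraries, made by priming RNA at the poly(A) tail and counting transcripts at their 3′ ends. Both groups were B16F10 cells of C57BL/6 origin, transduced with a lentiviral vector, selected with puromycin and grown in DMEM with serum. The control group (shControl, n = 2 libraries) carried a vector that the study lists as empty, and the lamin A/C knockdown group (shLmna, n = 2 libraries) carried a vector with a short hairpin RNA against exon 8 of Lmna, which encodes the A-type lamins of the nuclear lamina. Each group was a selected population with 1 vector, so the hairpin, other differences between the transduced lines and any general effect of carrying a hairpin cannot be told apart. The sources do not say whether replicate libraries were separate cultures, and p-values measure only the spread between these libraries. In the tests used, the variance of each gene was partly pooled over all tested genes. No interferon treatment is named in the labels, and the single comparison asked how lamin A/C downregulation altered transcript levels.

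Class I molecules are built from a heavy chain, encoded in C57BL/6 cells mainly by H2-K1 and H2-D1, and the light chain β2-microglobulin, encoded by B2m. Peptides cut by the proteasome are pumped into the endoplasmic reticulum by the transporter Tap1 and Tap2, trimmed by the aminopeptidase Erap1 and loaded with the help of tapasin (Tapbp), the oxidoreductase Pdia3 (ERp57) and calreticulin. Nlrc5 is the transactivator of class I genes, and Cd274 encodes PD-L1, an inhibitory ligand for T cells. Melanoma cells, and B16 lines in particular, are known for low basal class I expression that interferon can raise.

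Library totals ran from 2494880 to 3808843 counts, and 3 counts in a library equalled 0.803 to 1.19 CPM (counts scaled to a common library total with TMM factors). A gene with 3 or fewer counts in every library was taken as unread. Lmna, the targeted gene, had 2826 and 2684 counts in shControl against 331 and 480 in shLmna. Its log2 fold change was -2.61 (SE 0.142, adjusted p = 7.93e-06), and it stayed past the threshold in all 14 processing alternatives. Of 7 melanocyte markers 6 were tested. Their summed level was 20117 to 24602 CPM in the 4 libraries, with Sox10 lower and Pmel and Mlana higher in shLmna. Of 11 immune cell markers 8 were at 0 in every library, Ptprc and Cd3e among them, and their summed level was 0.535 to 1.86 CPM. The summed level of Pecam1 and Cdh5, markers of endothelial cells, was 0 to 1.07 CPM. In bulk RNA, fewer cells expressing a gene and less RNA of it per cell cannot be told apart.

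The members separated into well-read and barely read genes. Counts came from a 3′ window of set length, so CPM values were not divided by transcript length. Averaged over the 4 libraries, levels in CPM were 337 for Pdia3, 215.5 for B2m, 107.5 for H2-D1, 22 for Tapbp and 11.8 for H2-K1. Pdia3 stood above 94.0% of the tested genes and B2m above 90.1%, whereas H2-K1 stood above 24.3%. The libraries of Pdia3, B2m, H2-D1 and Tapbp did not overlap in this order. Tapbp and H2-K1 overlapped across libraries, although Tapbp was the higher of the pair in 4 of 4. Below H2-K1 came a clear gap, and Cd274 at 1.97 CPM, Erap1 at 1.69, Tap1 at 1.59, Tap2 at 0.869 and Nlrc5 at 0.211 were near or under the level of 3 counts. Neighbours in this last group overlapped, although every library of Nlrc5 lay below every library of Cd274 and of Tap1.

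**Figure D1:**
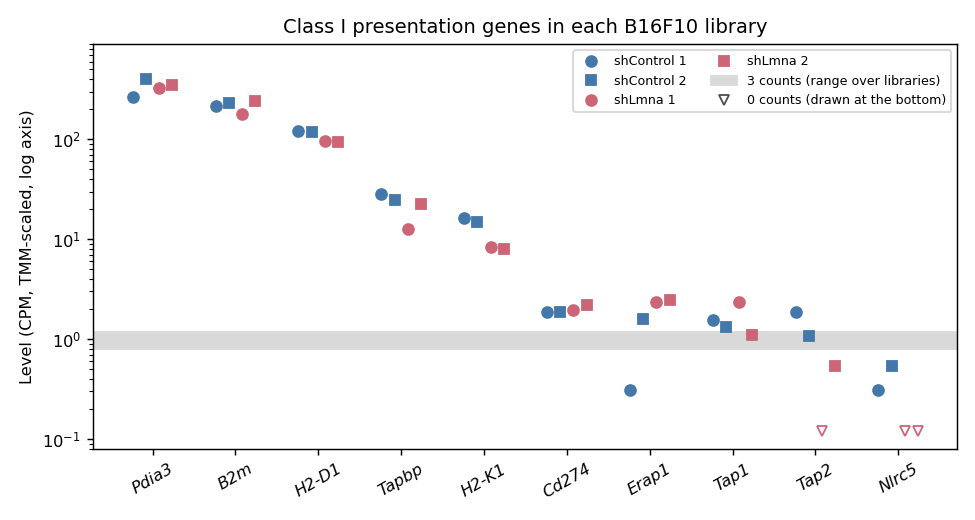
Level of each of the 10 members in the 4 libraries, in CPM on a log axis, with blue symbols for shControl, red symbols for shLmna and a grey band for the level of 3 counts (0.803 to 1.19 CPM). H2-K1 and H2-D1 were lower in both shLmna libraries than in both shControl libraries, and Tap1, Tap2, Erap1, Nlrc5 and Cd274 lay near or under the band.

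H2-K1, H2-D1 and Tapbp lie in the MHC of chromosome 17, as do Tap1 and Tap2. In GRCm38, H2-K1 spans bases 33996017 to 34000347 on the minus strand and H2-D1 bases 35262730 to 35267499 on the plus strand, and each has 8 annotated exons. Tapbp lies at 33915899 to 33929292, Tap1 at 34187553 to 34197225 and Tap2 at 34203527 to 34216321 of the same chromosome. B2m (bases 122147686 to 122153083) and Pdia3 (bases 121413775 to 121438687) are both on chromosome 2.

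The promoters of H2-K1 and H2-D1, the heavy chain pair, and of their partner B2m are shown because class I genes are known to be switched together through short upstream elements. Sequences are from RefSeq on GRCm38.p6, which listed 8 of the 10 members, and run 5′ to 3′ from 250 bases before to 50 bases after the annotated start. They cover chr17:34000298-34000597 on the minus strand for H2-K1, chr17:35262844-35263143 on the plus strand for H2-D1 and chr2:122147437-122147736 on the plus strand for B2m. For H2-K1, 2 starts were listed and the first was used. Capitals mark matches on either strand to 4 motifs, GGGATTCCC (the kappa B site of enhancer A), TTTCNNTT (the repeated core of an interferon response element), TGACG (the core of a cAMP response element) and CCAAT (the Y box).
H2-K1: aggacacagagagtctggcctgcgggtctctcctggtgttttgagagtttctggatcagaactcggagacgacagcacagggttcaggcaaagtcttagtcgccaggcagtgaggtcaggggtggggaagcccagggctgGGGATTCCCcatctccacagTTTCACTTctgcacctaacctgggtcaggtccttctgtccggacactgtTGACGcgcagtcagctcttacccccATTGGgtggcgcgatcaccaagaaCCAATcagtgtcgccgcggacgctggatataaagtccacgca
H2-D1: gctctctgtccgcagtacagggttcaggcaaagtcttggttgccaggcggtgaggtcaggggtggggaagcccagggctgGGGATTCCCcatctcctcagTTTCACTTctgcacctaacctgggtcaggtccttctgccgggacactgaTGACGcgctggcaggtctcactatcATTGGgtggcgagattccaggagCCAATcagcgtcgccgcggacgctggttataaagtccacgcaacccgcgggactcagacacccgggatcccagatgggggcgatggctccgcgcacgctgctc
B2m: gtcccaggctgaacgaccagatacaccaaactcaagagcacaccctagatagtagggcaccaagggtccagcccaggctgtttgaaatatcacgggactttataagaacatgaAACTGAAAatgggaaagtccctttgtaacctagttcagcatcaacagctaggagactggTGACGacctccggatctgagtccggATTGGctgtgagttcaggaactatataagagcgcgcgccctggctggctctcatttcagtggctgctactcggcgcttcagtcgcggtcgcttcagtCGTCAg
Both heavy chain promoters held GGGATTCCC, TTTCNNTT, TGACG and the paired CCAAT matches in the same order. From first base to first base the matches were 20, 49 and 25 bases apart in both, and the last pair was 24 bases apart in H2-K1 and 23 in H2-D1, so none overlapped. Aligned, the promoters were identical at 211 of 239 positions (88.3%), with a longest shared run of 47 bases. Among all 27025 genes with an entry, 0.370% of promoters held GGGATTCCC, and of the 8 members listed, H2-K1 and H2-D1 did. The other letters were common, with TTTCNNTT in 24.2%, TGACG in 21.0% and CCAAT in 37.9% of promoters. The B2m promoter held 1 match to TTTCNNTT, 2 to TGACG and 1 to CCAAT. Not every match was upstream of the start used, since the last CCAAT match of H2-K1 and the last TGACG match of B2m lay after it. Relative to that start, GGGATTCCC began at -110 in H2-K1 and at -170 in H2-D1. The letters TATAAA (the TATA box) began at 35 in H2-K1, after the start, and at -26 in H2-D1. The heavy chain matches thus shared their order and near-equal spacing, but not their distance from the annotated start. Such matches describe the letters of these windows only.

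Among the 5 tested members, 1 was lower in shLmna at an adjusted p under 0.05 by edgeR's quasi-likelihood test (H2-K1), 0 were higher and 4 did not pass. Over all 9150 tested genes 9.74% were called lower and 5.48% higher, so the members' share rests on a single gene. The median log2 fold change of the 5 was -0.33, against -0.00107 over all tested genes. At an unadjusted p under 0.05, 2 members were lower and 0 higher, with no share over all genes computed. DESeq2 tested 8 members and called 0 in either direction, against 589 lower and 217 higher of 10448 genes. Limma on the batch-corrected log2 values tested 8 members and called 2 lower and 0 higher. Over all 10417 genes limma called 1992 lower and 1784 higher. The shControl and shLmna libraries did not overlap, with shLmna lower, for 3 of the 5 (H2-K1, H2-D1 and Tapbp), where 30.6% of all tested genes had that pattern, and for 0 of 5 with shLmna higher, a pattern of 29.5% of tested genes.

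H2-K1, the heavy chain of H-2Kb, had 53 and 55 counts in shControl against 21 and 29 in shLmna, which equalled 16.4 and 14.7 CPM against 8.31 and 7.90. Both shLmna libraries lay below both control libraries, and the mean level was 15.6 ± 1.20 (SD, n = 2) against 8.10 ± 0.286 CPM. Its log2 fold change was -0.94 (SE 0.265, 95% interval -1.53 to -0.35), a level 0.521 times that of the control, with an adjusted p of 0.0405. The direction was the same in all 14 alternatives, and the call was made in 10 of them. Apart from limma on the batch-corrected values, these 10 were edgeR fits to counts of the same libraries, so they are not independent of one another. It was lost with DESeq2 (log2 fold change -0.94, adjusted p = 0.404), without shControl 1 (-0.86, adjusted p = 0.0789), without shLmna 1 (-0.97, adjusted p = 0.152) and without shLmna 2 (-0.89, adjusted p = 0.197). In the authors' batch-corrected log2 values the difference was smaller, -0.17, with an adjusted p of 0.00799 by limma. Lmna was also smaller there (-1.54 against -2.61 in counts), so effect sizes are not comparable between those values and the counts.

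H2-D1, the heavy chain of H-2Db, was read about an order of magnitude more deeply, with 394 and 439 counts in shControl against 241 and 349 in shLmna. Its levels were 122.0 and 117.5 CPM in shControl and 95.3 and 95.1 CPM in shLmna, again without overlap. The mean moved from 119.8 ± 3.18 to 95.2 ± 0.163 CPM (SD, n = 2). The log2 fold change of -0.33 (SE 0.124, 95% interval -0.61 to -0.05) did not pass the test over all genes (adjusted p = 0.105, edgeR). It ranged from -0.36 to -0.16 in the alternatives and passed in 1 of 14, limma on the batch-corrected values (-0.16, adjusted p = 0.0101).

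The heavy chain genes share part of their sequence, so some of their reads can be misassigned. In the last 1000 transcript bases, 26.5% of the 31-base words of H2-K1 occur in other genes (22% in H2-D1), as do 31.2% of those of H2-D1 (14.1% in H2-K1). At 60 bases the shared portions were 6.48% and 10.1%. How the counting treated reads that matched more than 1 gene is not stated, so the split between the chains is uncertain. The sum of H2-K1 and H2-D1, which a swap between the pair leaves unaltered, was 138.5 and 132.3 CPM in shControl and 103.6 and 103.0 CPM in shLmna. Of the 21 other class I heavy chain genes listed, 15 were at 0 in all 4 libraries and 19 had 3 or fewer counts in every library. The unread ones included H2-T23, the Qa-1 chain, with 0 and 2 counts in shControl against 0 and 2 in shLmna.

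Within each library, H2-K1 made up 11.9% (95% exact binomial interval 9.01 to 15.2) and 11.1% (8.50 to 14.2) of the counts of both heavy chains in shControl. The share was 8.02% (5.03 to 12.0) in shLmna 1 and 7.67% (5.20 to 10.8) in shLmna 2. Both shLmna shares were the lower ones, and the intervals, which cover counting error only, overlapped between groups. Overlap of single-library intervals does not test a difference between groups, and the shares were not tested.

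B2m did not separate the groups. It had 689 and 857 counts in shControl against 449 and 887 in shLmna, and its levels of 213.4 and 229.4 CPM lay between the shLmna values of 177.6 and 241.7 CPM. Its log2 fold change was -0.07 (95% interval -0.42 to 0.27, adjusted p = 0.794), and without shLmna 1 it was 0.13. The heavy chains together gave 64.9 and 57.6 counts per 100 counts of B2m in shControl, and 58.4 and 42.6 in shLmna. These ratios overlapped, since shLmna 1 lay between the control libraries.

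**Figure D2:**
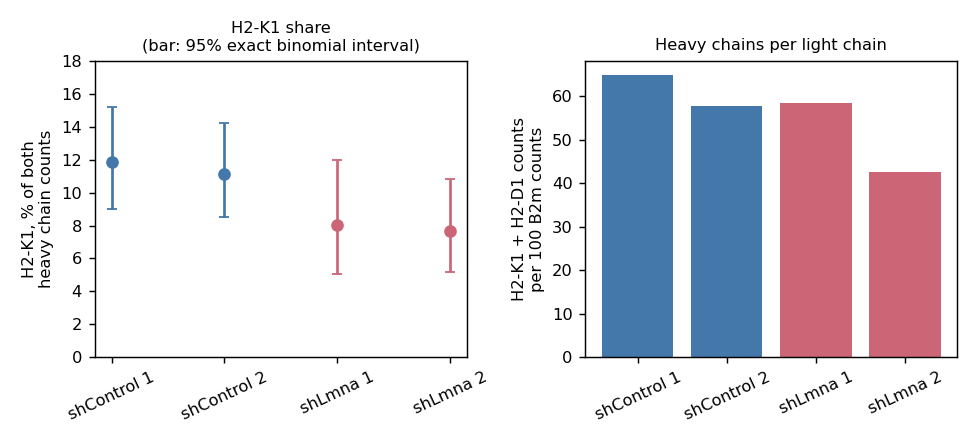
Left, H2-K1 as a percentage of H2-K1 and H2-D1 counts in each library, with 95% exact binomial intervals; right, counts of both heavy chains per 100 counts of B2m, as bars from 0. The H2-K1 share was 11.9% and 11.1% in shControl and 8.02% and 7.67% in shLmna with overlapping intervals, and the lowest bar was that of shLmna 2 (42.6).

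Among the loading factors, Tapbp, which bridges the class I heavy chain to the peptide transporter, had 91 and 93 counts in shControl against 32 and 82 in shLmna. Its levels were 28.2 and 24.9 CPM in shControl against 12.7 and 22.3 CPM in shLmna. The groups did not overlap, but the shLmna libraries stood far apart and most of the difference came from shLmna 1. The log2 fold change was -0.57 (95% interval -1.18 to 0.05, adjusted p = 0.200). It was -1.05 without shLmna 2 and -0.24 without shLmna 1, and it passed in 0 of the 14 alternatives. Per 100 heavy chain counts, Tapbp gave 20.4 and 18.8 in shControl and 12.2 and 21.7 in shLmna.

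Pdia3, the disulfide isomerase of the loading complex and of glycoprotein folding in general, was the most abundant member. It had 866 and 1504 counts in shControl against 823 and 1291 in shLmna. The shLmna levels of 326 and 352 CPM lay within the control levels of 268 and 403 CPM. Its log2 fold change was 0.01 (95% interval -0.39 to 0.41, adjusted p = 0.974), and it changed sign when shControl 1 was left out (-0.25) or the GC content of the 3′ ends was corrected for (-0.063).

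The peptide transporter was close to unread. Tap1 had 5 and 5 counts in shControl against 6 and 4 in shLmna, and the ratio of its group totals, scaled by library size, was 1.12 with a 95% counting interval of 0.420 to 3.01. Tap2 had 6 and 4 counts in shControl against 0 and 2 in shLmna, a ratio of 0.225 (0.0239 to 1.05). Neither gene entered the test, and both intervals included 1, so the counts did not resolve whether either gene differed.

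Erap1, the trimming peptidase, had 1 and 6 counts in shControl against 6 and 9 in shLmna, a ratio of 2.41 (0.924 to 6.98). In CPM both shLmna libraries (2.37 and 2.45) were above both control libraries (0.310 and 1.61), but the counting interval of the ratio included 1. Among the untested members the groups were also apart for Cd274, with shLmna higher, and for Tap2 and Nlrc5, with shLmna lower. No share of such patterns among untested genes was computed. Cd274 had 6 and 7 counts in shControl against 5 and 8 in shLmna, a ratio of 1.12 (0.480 to 2.63). PD-L1 mRNA was thus present at 1.87 CPM in the pooled shControl libraries and 2.10 CPM in the pooled shLmna libraries. The counts did not resolve whether it differed. Nlrc5 had 1 and 2 counts in shControl against 0 and 0 in shLmna, so the transactivator was unread and no ratio is given. When these genes were tested without the filter on low counts, the adjusted p was 0.922 for Tap1, 0.335 for Tap2, 0.372 for Erap1, 0.523 for Nlrc5 and 0.929 for Cd274.

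Around the members, 101 other genes of class I presentation, its interferon control and its surface partners were listed, and 100 were in the matrix. Of these, 53 were tested, 5 were lower in shLmna at an adjusted p under 0.05 (Canx, Calr, Ifnar2, Ep300 and Ifit2), 1 was higher (Tpp2) and 47 did not pass. Over all tested genes 9.74% were called lower and 5.48% higher, so the lower calls were at about the background share. For the lists below, the calls over all genes were 589 lower and 217 higher of 10448 with DESeq2. With limma they were 1992 lower and 1784 higher of 10417. No share over all genes was computed for an unadjusted p. Of the 100 genes, 25 were listed at 0 in all libraries and 36 had 3 or fewer counts in every library; for genes that share sequence with others, a count of 0 also depends on how reads with several matches were treated.

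Of the 6 other loading chaperones, 2 fell, 0 rose and 4 did not pass, with a median log2 fold change of -0.01. At an unadjusted p under 0.05, 2 were lower and 0 higher in edgeR, and DESeq2 called 2 lower and 0 higher and limma 2 lower and 1 higher. Canx encodes calnexin, the chaperone that folds new heavy chains before they meet β2-microglobulin. It had 209 and 380 counts in shControl against 27 and 48 in shLmna, or 83.2 ± 26.2 against 11.9 ± 1.70 CPM (SD, n = 2). Its log2 fold change was -2.79 (SE 0.258, adjusted p = 0.000104), of the same order as that of Lmna itself, and it passed in all 14 alternatives. Its values were -3.07 to -2.43 in the fits to counts and -0.83 with limma on the batch-corrected values. Calr encodes calreticulin, which holds heavy chains in the loading complex, and had 13541 and 13788 counts in shControl against 5989 and 11012 in shLmna. It fell by 0.55 on the log2 scale (adjusted p = 0.0164), and without shLmna 1 the change was -0.39 and did not pass (adjusted p = 0.189).

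Of the 6 other peptidases tested, 1 rose, 0 fell and 5 did not pass, with a median of 0.11. At an unadjusted p under 0.05, 2 were lower and 2 higher in edgeR. DESeq2 tested 7 and called 0, and limma tested 7 and called 2 lower and 3 higher. Tpp2, a cytosolic peptidase that trims proteasome products, had 207 and 244 counts in shControl against 232 and 341 in shLmna. Its log2 fold change was 0.51 (adjusted p = 0.0286), and the call was lost with DESeq2 (adjusted p = 0.165), without shLmna 1 (0.148) and without shLmna 2 (0.162). Of the immunoproteasome subunits, Psmb8 was thinly read, Psmb9 was unread and Psmb10 had enough counts for the test. Psmb8 had 4 and 5 counts in shControl against 0 and 2 in shLmna, and Psmb9 had 3 and 0 against 0 and 0. Psmb10 had 259 and 270 counts in shControl against 227 and 311 in shLmna, with a log2 fold change of 0.19 (adjusted p = 0.380). Of the 3 genes of the immunoproteasome and its PA28 activator that were tested, 0 passed in edgeR, 0 had an unadjusted p under 0.05, and DESeq2 called 0 and limma 1.

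Among the regulators, 21 of 24 genes of class I transcription and interferon signalling were tested, 2 fell, 0 rose and 19 did not pass, with a median of -0.20. These counts are from edgeR. At an unadjusted p under 0.05, 4 were lower and 4 higher. DESeq2 tested 22 and called 0 in either direction, and limma tested 22 and called 5 lower and 4 higher. Ifnar2, a chain of the type I interferon receptor, had 188 and 185 counts in shControl against 65 and 126 in shLmna, with a log2 fold change of -0.83 (adjusted p = 0.0196). The call was lost with DESeq2 (adjusted p = 0.0843), without shLmna 1 (-0.64, 0.159) and without shLmna 2 (0.0616). Ep300, a histone acetyltransferase and coactivator, had 103 and 127 counts in shControl against 36 and 70 in shLmna, a log2 fold change of -0.97 (adjusted p = 0.0185). With a correction for GC content the value was -0.27 (adjusted p = 0.467), and the GC content of its last 1000 bases was 30.9%. It was also lost with DESeq2 (adjusted p = 0.116), without shLmna 1 (0.139) and without shLmna 2 (0.0568).

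Irf1 and Rfx5, transcription factors that act on class I promoters, did not pass. The log2 fold change was 0.44 for Irf1 (adjusted p = 0.365). It depended on which control library was kept, at 0.91 without shControl 1 (adjusted p = 0.0499) and 0.067 without shControl 2 (adjusted p = 0.926). Rfx5, a subunit of the factor that recruits Nlrc5 to class I promoters, had 17 and 12 counts in shControl against 0 and 7 in shLmna, a log2 fold change of -1.89 (adjusted p = 0.136). It passed with no filter on low counts (adjusted p = 0.0307) and with the replicate block (0.0334), and it was -1.12 without shLmna 1 and -6.75 without shLmna 2, where the remaining library had 0 counts and the fitted value is no bound.

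Of 7 tested interferon-stimulated genes, 1 fell, 0 rose and 6 did not pass, with a median of -0.15. At an unadjusted p under 0.05, 1 was lower and 0 higher in edgeR. DESeq2 tested 10 and called 0, and limma tested 10 and called 2 lower and 1 higher. Ifit2, an RNA-binding antiviral protein, had 77 and 61 counts in shControl against 19 and 32 in shLmna, a log2 fold change of -1.29 (adjusted p = 0.0152). The call was lost with DESeq2 (adjusted p = 0.117), without shLmna 1 (0.0962) and without shLmna 2 (0.0980). Of 6 other tested surface ligands and partners of PD-L1, 0 passed, 1 had an unadjusted p under 0.05, and DESeq2 called 0 and limma 1. That one was Cmtm6, which protects PD-L1 from degradation, with 86 and 85 counts in shControl against 99 and 126 in shLmna, a log2 fold change of 0.57 (adjusted p = 0.0878). It passed in 3 of the 14 alternatives, without shControl 1 (0.69, adjusted p = 0.0401), with the replicate block (0.57, adjusted p = 0.0479) and with limma (0.15, adjusted p = 0.0106). Of 3 tested brakes on interferon signalling 0 passed in edgeR, DESeq2 or limma, with 0 at an unadjusted p under 0.05. The ligands of NKG2D, an activating receptor of killer cells, had 0 genes with enough counts for the test, and 7 of the 8 in the matrix were at 0 in all libraries.

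**Figure D3:**
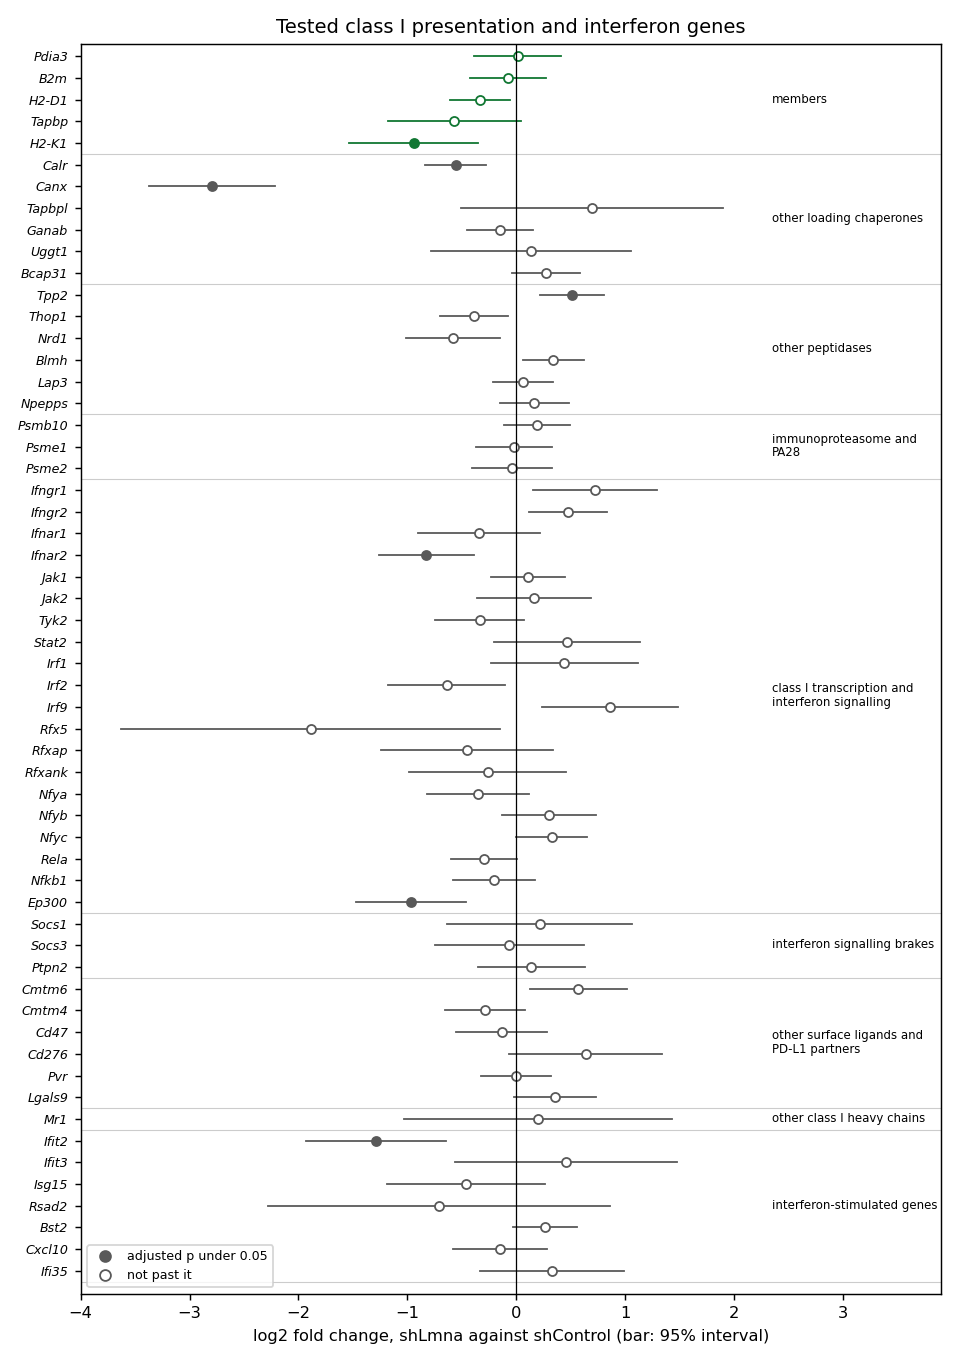
Log2 fold change of the tested genes reported here, shLmna against shControl, with 95% intervals, green for the members and grey for the other listed genes. Filled points passed an adjusted p of 0.05 (H2-K1 among the members, and Calr, Canx, Tpp2, Ifnar2, Ep300 and Ifit2 among the others), and Canx lay farthest from 0 at -2.79.

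**Figure D4:**
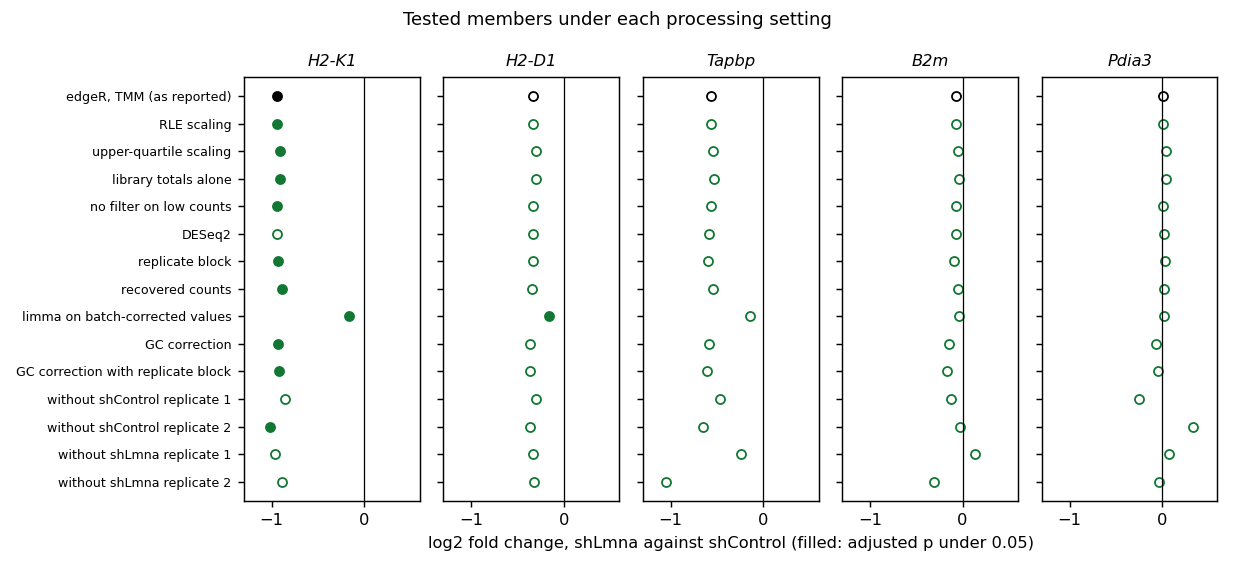
Log2 fold change of the 5 tested members under the reported setting (black) and 14 alternatives (green), filled where the adjusted p was under 0.05. H2-K1 and H2-D1 stayed below 0 throughout, H2-K1 was filled in 10 of the 14 alternatives and H2-D1 in 1, and B2m and Pdia3 crossed 0.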

How the data were processed

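MARS-seq libraries of B16F10 cells, 2 shControl and 2 shLmna, were analysed, grouped by sample title. Per the study's methods the authors ran UTAP: Cutadapt, STAR 2.4.2a on mm10, and HTSeq counting over the last 1000 bases of RefSeq genes and a short stretch downstream, with UMI duplicates marked. The deposited matrix holds raw counts per gene, and whether duplicates were collapsed in it is not stated. A second deposited table holds a signal, the count divided by a DESeq2 size factor, in which 100% of values were whole multiples of 1 step (tolerance 0.01 reads). Summed per library over the genes found in both, the matrix counts were 1.08 to 1.09 times the recovered counts. The second table also holds the authors' p-values for their own comparison, which were not used. Another deposited table holds log2 values corrected by the authors with ComBat for batches that are not named. Limma was fitted to these values on group alone, with no allowance for the correction already made. Effect sizes from it are not on the scale of the count fits.

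Group differences in counts were fitted in edgeR 4.0.16 (R 4.3.3; quasi-likelihood F test, TMM, filterByExpr with a minimum count of 10, two-sided, Benjamini-Hochberg over 9150 genes). SEs came from the F statistic, and intervals are 95%. Adjusted p-values in the text are from this test unless DESeq2 1.42.0 or limma 3.58.1 is named. The code was tested on simulated data. Replicates differed by more than sampling noise (chi-square per degree of freedom 6.96 in shControl and 3.91 in shLmna). Alternatives were 3 other scalings, no filter, DESeq2, a replicate block, recovered counts, limma, GC correction with and without the block, and leaving out each library. Named were Lmna, all members, other listed genes with an adjusted p under 0.05, and the genes nearest in function (Psmb8, Psmb9, Psmb10, Calr, Canx, Irf1, Rfx5, Cmtm6 and H2-T23; 1 other gene is counted in its list but not reported here). Markers of other cell types were also listed. The members and lists were chosen with earlier results of these data known.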

Additional observations from a re-analysis of the deposited data

How the results depend on the processing

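Lmna kept its direction and call in all 14 alternatives, as did Canx. On the log2 scale Lmna was -2.74 to -2.45 in the fits to counts and -1.54 with limma on the batch-corrected values. The 1 member called lower became 0 with DESeq2, 2 with limma on batch-corrected values and 0 to 1 when a library was left out, and 0 members were called higher in any alternative. The 5 other listed genes called lower became 8 with no filter on low counts, 2 with DESeq2, 11 with limma and 1 to 7 when a library was left out (1 without shLmna 1 and 2 without shLmna 2). The 1 called higher became 3 with no filter, 0 with DESeq2, 2 with recovered counts, 11 with limma, 2 with GC correction, 2 with GC correction and the replicate block, and 0 to 5 when a library was left out (5 without shControl 1, 2 without shControl 2 and 0 without either shLmna library). B2m changed sign when shLmna 1 was left out (range over the 4 libraries -0.31 to 0.13). Pdia3 changed sign with GC correction (-0.063), with GC correction and the block (-0.039) and when a library was left out (-0.25 to 0.33). The cause of these shifts was not tested.

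The replicate numbers did not pair the libraries (correlation of same-numbered deviations 0.015). With the replicate block, 8 other listed genes were called lower and 5 higher, and the member count was unaltered. Over all genes the 891 lower and 501 higher calls became 1220 and 852 with the block, 589 and 217 with DESeq2, 1992 and 1784 with limma, 436 and 119 without shLmna 1, 414 and 89 without shLmna 2, and 1329 and 775 without shControl 1. Depth limits the members Tap1, Tap2, Erap1, Nlrc5 and Cd274, which had 9 or fewer counts in every library.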
